A study of Mus musculus with 9 samples.

Results

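Runx2, Sp7, Alpl, Ibsp, Spp1, Dmp1, Phex, Pth1r and Ifitm5, 9 genes known from bone-forming osteoblasts and the osteocytes they become, were followed by name through the deposited read counts, which list 23420 genes. All 9 were found, and all 9 passed the filter on low counts that left 15635 genes for the tests. RNA was sequenced from mesenchymal cells of C57BL/6 mice that were 3 to 4 weeks old. The cells came from bone (femur, tibia and pelvis), from thymus and from truncal skin (dermis of abdomen and back), with 3 libraries per tissue. In each tissue, cells were taken that bore SCA1, a surface marker found on stromal and progenitor cells, and that lacked CD45, CD31, EpCAM and other lineage antigens of blood, endothelium and epithelium, with at least 25000 sorted cells per sample. Every level below therefore describes this gate and not the whole organ. No genotype or treatment separated the groups, and the libraries compared differ by tissue. The labels do not say whether libraries came from separate mice, so p-values reflect only how far these libraries scatter, and that scatter may be technical. Thymus libraries carry the names 2, 3 and 1-3. The sources used here do not give what 1-3 stands for, and if it holds material of other samples, the thymus p-values rest on fewer separate samples than shown.

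Osteoblasts arise from mesenchymal progenitors under the transcription factor RUNX2 and then under SP7, also called osterix. The maturing cell lays down collagen I and acidic phosphoproteins, and its alkaline phosphatase removes pyrophosphate, an inhibitor of mineral growth. Cells buried in the mineral become osteocytes, which control phosphate through the hormone FGF23, and parathyroid hormone acts on the lineage through the receptor PTH1R.

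Sequencing gave between 78757872 gene reads (bone 3) and 116759235 (skin 3). Levels are given as CPM, read counts relative to all gene reads of the library, scaled with the TMM factors of edgeR, and means stand with their SD over 3 libraries. A gene was called higher or lower when edgeR's quasi-likelihood test gave a Benjamini-Hochberg adjusted p under 0.05 over all genes tested. Log2 fold changes come from that fit and stand with an approximate standard error (SE). The SCA1 gene Ly6a was read in every library, from 240.1 CPM in bone 2 to a mean of 948 CPM in skin. Bone libraries also held reads of genes that mark blood cells, whose surface antigens the sort selected against. The 9 neutrophil markers in the files summed to 2900.1 to 4028 CPM in bone, 10.3 to 13.7 CPM in thymus and 0.562 to 1.56 CPM in skin. Ptprc, which encodes CD45, lay at 73.6 to 81.3 CPM in bone. Scaled by library size alone and not by TMM, bone minus thymus for Ptprc was 1.97 on the log2 scale (adjusted p = 0.0362). Bone minus skin under that scaling was 6.53 (adjusted p = 6.96e-05). Thymus held such reads too, as B cell markers summed to 10.3 to 15.5 CPM there, beside 113 to 155 CPM in bone and 0.791 to 2.43 CPM in skin. Of the 8 listed genes of the sort antibodies, 3 were called higher in bone than in thymus, 1 lower and 4 neither. The shares of all genes were 16.1% higher and 16.5% lower, so the 1 lower is near its share. Cd4, of that list, was lower in bone than in thymus, at −2.76 with library size alone (adjusted p = 0.000741).

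The gene set split by tissue. Bone was higher than thymus for Runx2, Sp7, Alpl, Ibsp, Spp1 and Phex, 6 of 9 genes, where 16.1% of all genes tested were called higher in bone. None of the 9 was lower in bone than in thymus, against 16.5% of all genes. Bone was higher than skin for those 6 genes and Dmp1, 7 of 9, where 23.7% of all genes were called higher, and lower for Pth1r, 1 of 9, where 23.4% were called lower. Thymus was higher than skin for Runx2, Dmp1 and Phex, 3 of 9, beside 19.3% of all genes, and lower for Sp7 and Pth1r, 2 of 9, beside 18.3%. The 2 of 9 lower are near the share of all genes. The median log2 fold change of the 9 genes was 3.61 for bone minus thymus and 4.00 for bone minus skin, beside −0.022 and 0.034 for all genes tested. These medians were the same with the genes that had no reads in skin set at their bound. The genes called in each comparison were also those whose libraries did not overlap between the tissues, a separation shown by 49.4% of all genes for bone and thymus, 58.3% for bone and skin and 51.9% for thymus and skin. For thymus and skin, the share within the set was near that of all genes. In bulk RNA, fewer cells of a type and less RNA per cell cannot be told apart, here and in all that follows.

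**Figure D1:**
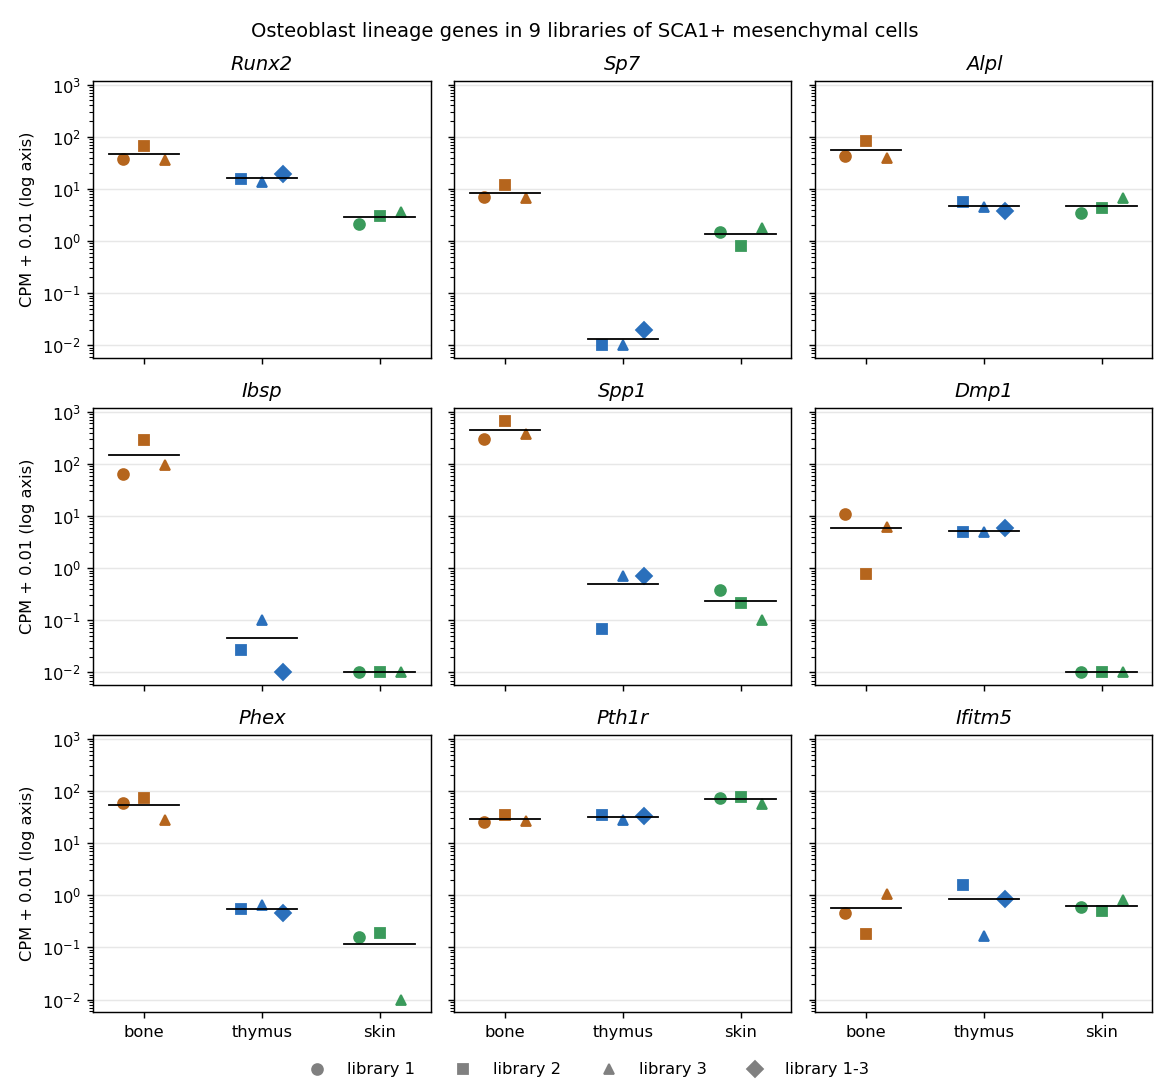
Level of each of the 9 genes in every library, in CPM plus 0.01 on a log axis, with 1 panel per gene, the 3 libraries of bone, thymus and skin as points and a bar at each tissue mean. Ibsp and Spp1 stand far above the other tissues in bone, Dmp1 is as high in thymus as in bone, and Pth1r is highest in skin.

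Runx2, the transcription factor without which no osteoblasts form, graded from bone through thymus to skin. It stood at 37.8, 66.0 and 35.9 CPM in bone 1, 2 and 3, at 15.2, 13.4 and 19.7 CPM in thymus 2, 3 and 1-3, and at 2.15, 3.08 and 3.53 CPM in skin 1, 2 and 3. The lowest bone library lay above the highest thymus library, and the lowest thymus library above the highest skin library. Bone minus thymus came to 1.53 ± 0.27 on the log2 scale (SE, adjusted p = 0.00103), bone minus skin to 4.00 ± 0.30 (adjusted p = 1.52e-06) and thymus minus skin to 2.46 ± 0.28 (adjusted p = 3.73e-05). The gene lies on the minus strand of chromosome 17, 44495987 to 44814627 (mm10), where Supt3 overlaps it on the other strand. How strand was treated in counting was not given by the sources used here. The exons of both genes share 0 bases in the GENCODE M21 annotation, and Supt3 was not called in any of the 3 comparisons (adjusted p = 0.774 for bone and thymus, 0.0914 for bone and skin and 0.197 for thymus and skin).

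Sp7, which acts after Runx2 on the way to the osteoblast, did not follow the same order. Its bone levels were 7.04, 11.9 and 6.63 CPM, and skin held 1.48, 0.777 and 1.78 CPM. The 3 thymus libraries gave 1 read between them, in the library named 1-3. Thymus libraries thus held more Runx2 than skin libraries and far less Sp7. Bone was 2979.9-fold above thymus (95% counting interval 534 to 117740) and skin 474-fold above thymus (84.4 to 18760), each ratio resting on that single read, so that thymus had 0 reads without library 1-3. Both differences were called (adjusted p = 2.31e-06 and 9.66e-06), as was bone minus skin at 2.66 ± 0.51 on the log2 scale (adjusted p = 0.00116). Such intervals cover counting error only. Sp7 lies on chromosome 15, 102357177 to 102366271 (mm10).

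Alpl encodes the tissue non-specific alkaline phosphatase. In bone it measured 43.7, 84.6 and 39.8 CPM, in thymus 5.62, 4.41 and 3.75 CPM and in skin 3.43, 4.21 and 6.72 CPM. Thymus and skin overlapped, and both lay well under bone. Bone minus thymus was 3.61 ± 0.36 (adjusted p = 2.52e-05) and bone minus skin 3.55 ± 0.36 (adjusted p = 1.86e-05) on the log2 scale. Thymus minus skin was −0.059 ± 0.33 and was not called (adjusted p = 0.912). Within skin, library 3 was highest for Alpl, Sp7 and Runx2. The 10 listed genes of the hair follicle's dermal papilla, which also makes alkaline phosphatase, summed to 59.6, 64.9 and 119.6 CPM in skin 1, 2 and 3. The same list summed to 135 to 168 CPM in bone and to 70.6 to 73.2 CPM in thymus, so its sum was not particular to skin. The part of dermal papilla cells in the skin level of Alpl was not tested. Alpl lies on chromosome 4, 137741732 to 137796377 (mm10).

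Ibsp, Spp1 and Dmp1 encode acidic phosphoproteins of mineralised matrix and neighbour each other on the plus strand of chromosome 5. In mm10 Dmp1 spans 104202617 to 104214102, Ibsp 104299287 to 104311472 and Spp1 104435111 to 104441053. Dspp (104170712 to 104180127) and Mepe (104325329 to 104338611), of the same protein family, complete the cluster. Dmp1 differed from Ibsp and Spp1 in tissue pattern, so the sequence before each of the 3 genes is shown. The 250 bases end just before the start that the deposited coordinates give for each gene. They are RefSeq's windows on GRCm38.p6 (mm10), plus strand, 5′ to 3′, at chr5:104299037-104299286 for Ibsp, chr5:104434861-104435110 for Spp1 and chr5:104202367-104202616 for Dmp1. Capitals mark each match, on either strand, to 3 motifs. They are the core that RUNX factors bind, TGTGGT, then the TATA box, spelt TATAAA, and lastly the box named for its letters, CCAAT.
Ibsp: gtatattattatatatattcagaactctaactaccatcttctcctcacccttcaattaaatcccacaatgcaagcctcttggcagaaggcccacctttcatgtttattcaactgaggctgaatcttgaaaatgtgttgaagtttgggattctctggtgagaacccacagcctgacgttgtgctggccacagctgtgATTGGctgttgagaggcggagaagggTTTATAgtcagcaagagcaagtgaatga
Spp1: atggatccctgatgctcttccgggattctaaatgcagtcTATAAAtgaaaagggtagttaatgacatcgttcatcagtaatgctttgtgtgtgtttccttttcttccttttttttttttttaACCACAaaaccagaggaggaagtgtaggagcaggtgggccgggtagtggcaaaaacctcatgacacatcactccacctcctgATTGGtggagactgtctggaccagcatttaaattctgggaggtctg
Dmp1: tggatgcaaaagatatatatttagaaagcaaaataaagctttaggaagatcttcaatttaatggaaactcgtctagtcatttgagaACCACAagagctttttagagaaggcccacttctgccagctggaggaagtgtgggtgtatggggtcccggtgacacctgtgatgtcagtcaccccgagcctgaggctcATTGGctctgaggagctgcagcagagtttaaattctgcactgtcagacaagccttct
Ibsp held a match to the TATA and CCAAT boxes and none to the RUNX core in this window, and Spp1 held 1 match to each of the 3. Dmp1 held a match to the RUNX core and the CCAAT box and none to the TATA box. The TATA match of Spp1 lies near the upstream end of its window, far from the gene start. That of Ibsp lies close to the gene start, on the minus strand. No matches overlapped. Over the 32851 windows of the same length, 14% held the RUNX core, 12.4% the TATA box and 33.8% the CCAAT box. A match is a string of letters and not a site shown to be bound. Spp1 and Dmp1 each have a second window at another RefSeq start, which is not shown. The other Spp1 window held none of the 3 motifs, and the other Dmp1 window held 1 CCAAT box and neither of the rest. Of the 9 genes, 8 had a window, and Sp7 had none.

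Ibsp, bone sialoprotein, was the nearest to a gene read in bone alone. Its bone libraries held 6515, 33298 and 8757 reads, or 63.2, 284 and 94.98 CPM. Thymus libraries 2, 3 and 1-3 held 2, 11 and 0 reads, and skin held 0 reads in all 3 libraries. Bone minus thymus was 11.88 ± 1.00 on the log2 scale (adjusted p = 7.60e-05). Against skin, the pooled reads of the 3 bone libraries over a floor of 3 reads in the 3 skin libraries put bone at least 12636-fold higher (adjusted p = 4.77e-05), or at least 6360-fold without bone 2. Thymus and skin were not told apart (adjusted p = 0.363). Ibsp had the widest gap between bone libraries of the genes called higher in bone against both tissues, and without bone 2 its bone mean of 147 CPM became 79.1 CPM and its log2 fold change against thymus 10.98, still called. Without thymus 3, which held 11 of the 13 thymus reads, that fold change was 13.80, called as well.

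Spp1, osteopontin, had the highest bone level of the 9 genes per length of gene. Bone 1, 2 and 3 held 308, 674 and 381 CPM, thymus 2, 3 and 1-3 held 0.0587, 0.694 and 0.696 CPM, and skin 1, 2 and 3 held 0.371, 0.205 and 0.0923 CPM. No library outside bone reached 1 CPM. Bone minus thymus was 9.89 ± 0.79 (adjusted p = 1.22e-05) and bone minus skin 10.97 ± 0.84 (adjusted p = 6.73e-06) on the log2 scale, the latter 11.61 without skin 1. Thymus minus skin was 1.09 ± 0.79 and was not called (adjusted p = 0.320), but without thymus 2, which held 7 reads, it was 1.63 and was called (adjusted p = 0.0434). Macrophages also make osteopontin. The 8 macrophage markers summed to 15.3, 61.7 and 25.8 CPM in thymus 2, 3 and 1-3 and to 396, 316 and 391 CPM in bone 1, 2 and 3. In bone they were lowest in the library with the most Spp1, and in thymus they were lowest in the library with the least. The part of macrophages in the Spp1 levels was not tested.

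Dmp1, a matrix protein of osteocytes and late osteoblasts, broke with its neighbours. Thymus libraries held 4.92, 4.90 and 5.95 CPM, from 586, 586 and 607 reads. Bone 1, 2 and 3 held 11.1, 0.776 and 6.07 CPM, from 1148, 91 and 560 reads, and the 3 skin libraries held 0 reads. The thymus libraries were close to each other, and bone 1 and bone 3 lay above all of them and bone 2 below. Bone and thymus were not told apart, at 0.19 ± 0.75 on the log2 scale (adjusted p = 0.880), and the sign of that difference turned to −0.62 without bone 1. Against skin, with reads pooled as for Ibsp, bone was at least 468-fold higher (adjusted p = 0.000268) and thymus at least 424-fold higher (adjusted p = 0.000386). The bone bound was 253-fold without bone 1 and 711-fold without bone 2, and the thymus bound stayed between 399-fold and 438-fold with each thymus library left out. Ibsp in thymus, by contrast, summed to 13 reads where Dmp1 summed to 1779, with no test made between the 2 genes.

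Phex, on the X chromosome (157162075 to 157415286, mm10), encodes a membrane endopeptidase of osteoblasts and osteocytes whose loss raises FGF23 and wastes phosphate. Bone held 58.1, 74.2 and 28.2 CPM, thymus 0.529, 0.636 and 0.451 CPM and skin 0.146, 0.176 and 0 CPM. All 3 tissues were apart, with thymus and skin near the bottom of the scale at 185 and 25 reads in all. Bone minus thymus was 6.63 ± 0.59 (adjusted p = 2.35e-05) and bone minus skin 8.99 ± 0.70 (adjusted p = 6.56e-06) on the log2 scale. Thymus minus skin was 2.37 ± 0.67 (adjusted p = 0.0198). That last call was lost without thymus 3 (2.23, adjusted p = 0.0581) and in the fits on RPKM, and without skin 3, which had no read, the difference was 1.75 and that of bone minus skin 8.38.

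Pth1r, the receptor for parathyroid hormone and for the related peptide PTHrP, was the 1 gene of the 9 that was highest in skin. Skin held 73.9, 78.2 and 55.4 CPM, thymus 34.3, 28.2 and 33.3 CPM and bone 25.1, 34.3 and 26.5 CPM. Every skin library lay above every other library, and bone and thymus overlapped. Bone minus skin was −1.27 ± 0.17 (adjusted p = 0.000102) and thymus minus skin −1.12 ± 0.17 (adjusted p = 0.000340) on the log2 scale. Bone minus thymus was −0.16 ± 0.17 and was not called (adjusted p = 0.528). The size of the skin excess depended on scaling. With library size alone, which moved the median of all genes to 0.72 for bone minus skin and to 0.66 for thymus minus skin, Pth1r stood at −0.58 and −0.48, and both remained called (adjusted p = 0.0157 and 0.0367). Pth1r lies on chromosome 9, 110722085 to 110747145 (mm10).

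Ifitm5, a small membrane protein of mineralising osteoblasts also called BRIL, was low in all 3 tissues. Bone held 0.456, 0.171 and 1.04 CPM, thymus 1.57, 0.159 and 0.823 CPM and skin 0.585, 0.484 and 0.796 CPM. The 3 tissues overlapped. No difference was called, with bone minus thymus at −0.61 ± 1.06 (adjusted p = 0.707), bone minus skin at −0.16 ± 1.06 (adjusted p = 0.915) and thymus minus skin at 0.45 ± 1.06 (adjusted p = 0.777) on the log2 scale. With SEs this wide, severalfold differences in either direction were not detectable. Ifitm5 lies on chromosome 7, 140948962 to 140950239 (mm10).

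**Figure D2:**
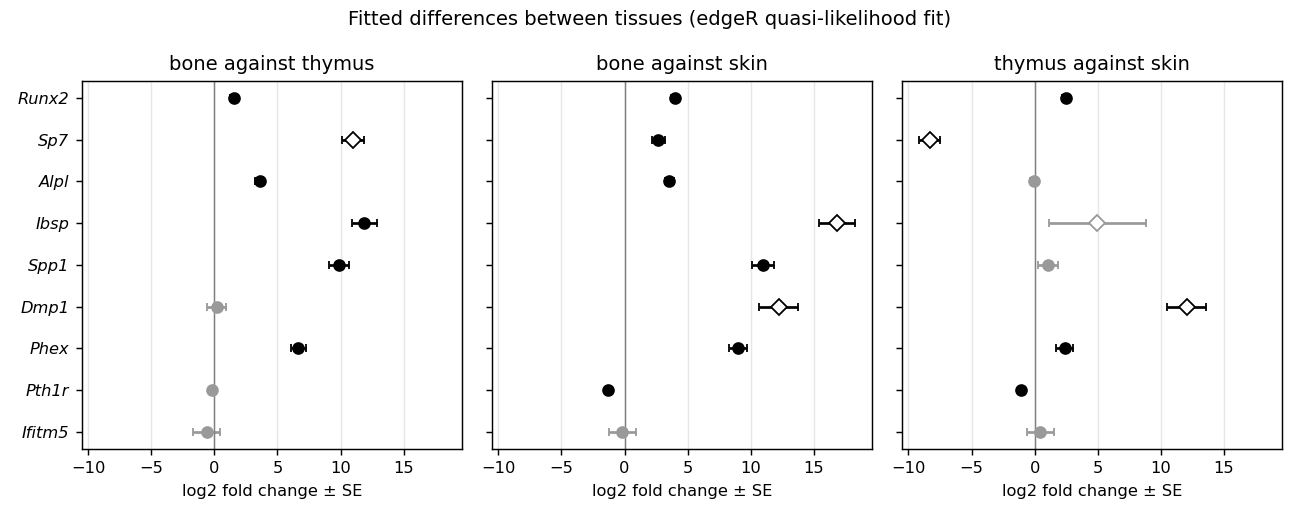
Log2 fold change of each of the 9 genes in the 3 comparisons (edgeR, with SE as the bar), with called differences in black, others in grey, and open diamonds for 3 reads or fewer in the lower tissue, where the fitted value is no bound. Ibsp, Sp7, Spp1 and Phex differ most between bone and thymus, from 6.63 to 11.88, while Pth1r is below 0 against skin.

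The 3 bone libraries differed from one another for these genes more than most genes did. Bone 2 had the highest level for 7 of the 9 genes, where bone 2 was highest for 32.1% of the 12965 genes with a bone mean of 1 CPM or more. It had the lowest level for the remaining Dmp1 and Ifitm5, beside 34.0% of all genes. Relative to the mean of bone 1 and bone 3, bone 2 held 3.59 times the Ibsp, 2.03 times the Alpl, 1.96 times the Spp1, 1.79 times the Runx2, 1.74 times the Sp7, 1.72 times the Phex and 1.33 times the Pth1r. For Dmp1 the same ratio was 0.0901, and for Ifitm5 0.228. A ratio at or over 2 was reached by Ibsp and Alpl, 2 of the 9, and by 2.97% of the 12965 genes. A ratio at or under 0.1 was found for 20 of the 12965 genes, or 0.154%, Dmp1 among them. Ifitm5 has a bone mean under 1 CPM and is not one of those 12965 genes. Among genes with a bone mean of 10 CPM or more, bone 2 was highest for 6 of 6 of the set, beside 29.5% of all.

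The ratio of the highest to the lowest bone library was 14.4 for Dmp1, 6.11 for Ifitm5, 4.49 for Ibsp, 2.63 for Phex, 2.19 for Spp1, 2.12 for Alpl, 1.84 for Runx2, 1.797 for Sp7 and 1.37 for Pth1r. A ratio of 2 or more was reached by 6 of the 9 genes, and by 14.8% of genes with a bone mean of 1 CPM or more. The median over those genes was 1.33. At a bone mean of 10 CPM or more it was reached by 4 of 6 of the set, which are Alpl, Ibsp, Spp1 and Phex, and by 2.80% of all genes. Bone 1 was the library with the most Dmp1, at 11.1 CPM, and held the least Ibsp, Spp1 and Pth1r. Bone 3 held the most Ifitm5, at 1.04 CPM, and the least Runx2, Sp7, Alpl and Phex. The ranking is a description of 3 libraries, with no test. All 6 calls against thymus and all 8 against skin were made again without bone 2.

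Cartilage genes moved with bone 2 as well. Of the 10 listed genes of hypertrophic and growth plate cartilage, 9 had a bone mean of 1 CPM or more, and 8 of those were highest in bone 2. Col10a1, the collagen of hypertrophic chondrocytes, stood at 317 CPM in bone 1, 854 CPM in bone 2 and 552 CPM in bone 3. Mmp13, a collagenase of hypertrophic chondrocytes and osteoblasts, stood at 279, 1139 and 468 CPM. The list summed to 1087, 2696 and 1492 CPM in the 3 bone libraries, to 15.6 to 24.9 CPM in thymus and to 12.5 to 14.99 CPM in skin. Hypertrophic chondrocytes also make Ibsp, Spp1, Alpl and Runx2, and their part in the bone levels of these genes was not tested. Blood cell lists did not peak in that library throughout. Neutrophil markers were highest in bone 3 for 9 of 9 genes, macrophage markers in bone 1 for 7 of 8, and B cell markers in bone 2 for 6 of 8. The share of all genes was taken for bone 2 alone, at 32.1%, so the counts for bone 1 and bone 3 have no share beside them. Of the 6 osteoclast genes at 1 CPM or more in bone, 3 were highest in bone 1, 1 in bone 2 and 2 in bone 3, and the list of 10 summed to 915, 649.8 and 916 CPM in bone 1, 2 and 3. Of the 8 osteoclast genes tested, 5 were called higher in bone than in thymus and 0 lower, beside 16.1% and 16.5% of all genes. Against skin 2 were called higher and 1 lower, beside 23.7% and 23.4%, so the 2 are near the share of all genes. Under scaling by library size alone, the counts against skin were 5 and 0. Calcr had no reads in any bone library.

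**Figure D3:**
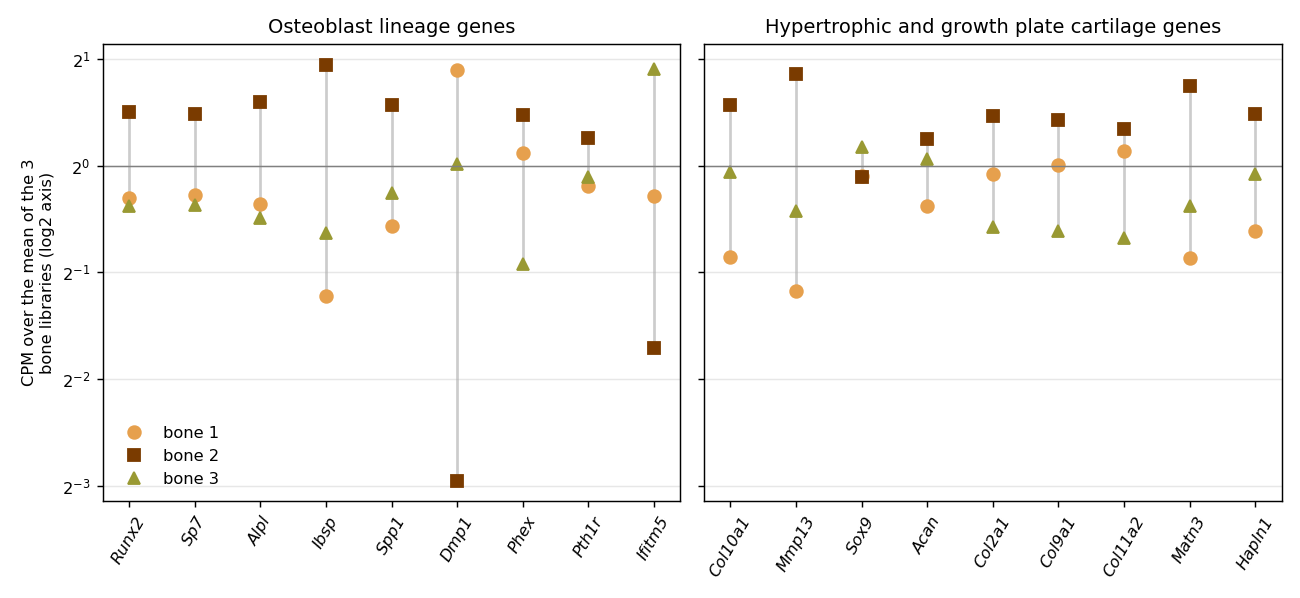
Level in bone 1, 2 and 3 divided by the mean of the 3, on a log2 axis, for the 9 genes and for the cartilage genes with a bone mean of 1 CPM or more. Bone 2 is the top point for 7 of the 9 genes and for 8 of 9 cartilage genes, and Dmp1 and Ifitm5 run the other way.

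The order of the 9 genes within a tissue was taken from the deposited RPKM, which divides reads by gene length and library size. In bone it ran from Spp1 (272 ± 122 RPKM) through Ibsp (76.3 ± 63.9), Alpl (22.6 ± 10.7), Pth1r (11.6 ± 2.47), Phex (8.56 ± 3.86), Runx2 (6.34 ± 2.54), Sp7 (3.85 ± 1.45) and Dmp1 (2.12 ± 1.804) to Ifitm5 (0.836 ± 0.608). Only Spp1 and Ibsp, and Alpl and Pth1r, were neighbours whose libraries did not overlap. In thymus and skin the order was led by Pth1r, at 12.8 ± 0.945 RPKM in thymus and 18.7 ± 2.91 RPKM in skin. The next in thymus were Runx2 (2.13 ± 0.324 RPKM), Dmp1 (1.88 ± 0.164), Alpl (1.85 ± 0.393) and Ifitm5 (1.38 ± 1.006), with overlapping libraries between each and the next. Skin followed Pth1r with Alpl (1.31 ± 0.481 RPKM), Ifitm5 (0.656 ± 0.128), Sp7 (0.409 ± 0.165) and Runx2 (0.262 ± 0.0637), and among these neighbours only Sp7 and Runx2 overlapped. In the bone libraries the matrix genes Spp1 and Ibsp thus led the list, while Dmp1, also a matrix gene, had rank 8. In the other 2 tissues the hormone receptor gene led.

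**Figure D4:**
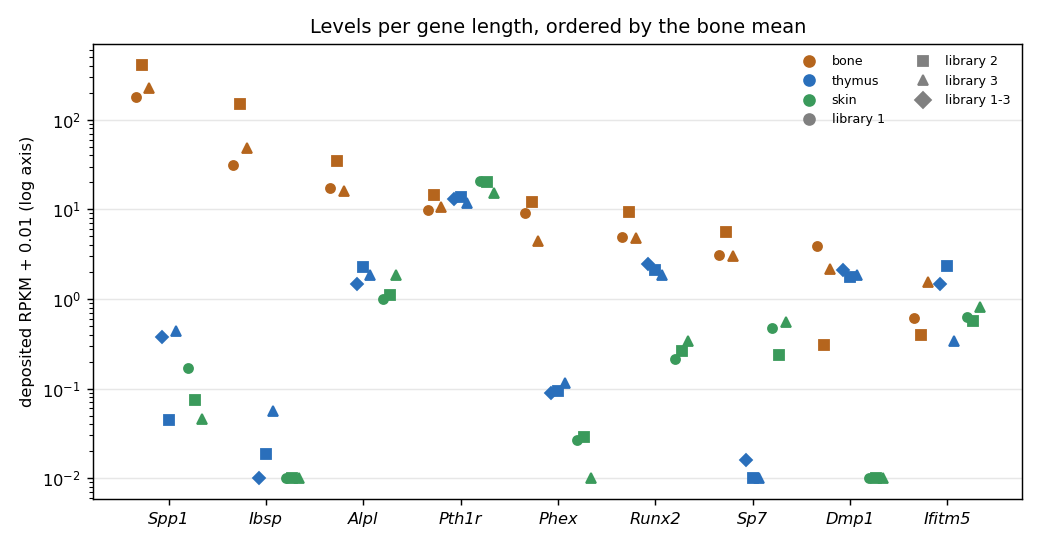
Deposited RPKM of the 9 genes plus 0.01 in every library on a log axis, with genes in the order of their bone mean, colours for tissues and symbols for libraries. Spp1 leads in bone at a mean of 272 RPKM, and Pth1r leads in thymus and skin at 12.8 and 18.7 RPKM.

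Across all 9 libraries, likeness of pattern was measured as the root mean square difference between centred log2 CPM profiles, where 0 is identity. The closest genes outside the set were Daam2 for Runx2 (0.35), Tnmd for Sp7 (0.54), Tiam2 for Alpl (0.42), Clec3a for Ibsp (0.65), Elane for Spp1 (0.82), Sh2d2a for Dmp1 (1.08), Sorbs2 for Phex (0.74), Mvk for Pth1r (0.12) and Tomt for Ifitm5 (0.62). Col10a1 was the second closest to Ibsp, at 0.77, and the cartilage collagen gene Col2a1 the third closest to Spp1, at 0.92. Elane, a protease of neutrophil precursors, came close to Spp1 by a bone mean of 47.9 CPM beside 0.0261 CPM in thymus and no reads in skin. Sh2d2a had 1.77 CPM in bone, 2.86 CPM in thymus and no reads in skin, and so shares with Dmp1 the absence of reads in skin, with more in thymus than in bone where the Dmp1 means run the other way. Within the set, the closest pairs were Pth1r with Ifitm5 (1.11), Runx2 with Alpl (1.12) and Ibsp with Spp1 (1.27). The median over the genes compared outside the set was 0.844 for Pth1r and 1.14 for Ifitm5, so that pair was no more alike than typical genes. For Runx2 and Alpl this median was 1.79 and 1.83, and for Ibsp and Spp1 5.76 and 5.16. These values describe 9 libraries in 3 tissues and carry no test.

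Other transcription factors of the lineage were higher in bone than in thymus for 9 of 13 genes and lower for 0, with a median log2 fold change of 1.93. Against skin 8 were higher and 3 lower, with a median of 1.52. For these and the lists that follow, the shares of all genes tested were 16.1% higher and 16.5% lower than in thymus, and 23.7% higher and 23.4% lower than in skin, so 3 of 13 lower than in skin is near the share of all genes. The 3 with the highest bone level were Atf4 at 418 ± 24.3 CPM, Fosl2 at 335 ± 34.0 CPM and Runx1 at 142 ± 40.1 CPM. Fosl2 is an AP-1 protein, and Runx1 is a relative of Runx2 known mainly from blood formation. Runx1 was higher in bone than in thymus by 2.16 ± 0.26 (adjusted p = 0.000102) and than in skin by 4.197 ± 0.288 (adjusted p = 1.43e-06) on the log2 scale. Atf4, which promotes amino acid import in osteoblasts, had less RNA in bone than skin, by −0.51 ± 0.16 (adjusted p = 0.0222), where the mean skin level was 596 CPM. With library size alone that difference turned to 0.18 and was not called (adjusted p = 0.336), and the counts against skin were 10 higher and 2 lower.

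Of the 11 bone matrix genes tested, 5 were higher in bone than in thymus and 2 lower (median 0.79), and against skin 5 were called higher and 5 lower (median −0.82), or 5 higher and 3 lower with library size alone. The 2 lower than in thymus are near the 16.5% of all genes. The most abundant were those of collagen I and of osteonectin, which are not confined to bone. Col1a1 stood at 13155 ± 993 CPM in bone, 6963 ± 706 CPM in thymus and 97238 ± 7922 CPM in skin, and Col1a2 and Sparc were likewise highest in skin. Bone minus skin was −2.89 ± 0.17 for Col1a1 (adjusted p = 2.57e-07), −2.45 ± 0.16 for Col1a2 (adjusted p = 6.20e-07) and −2.09 ± 0.15 for Sparc (adjusted p = 1.25e-06).

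Osteocalcin, the protein of mature osteoblasts, was read in bone without following bone 2. Bglap measured 7.37, 5.93 and 8.02 CPM in bone 1, 2 and 3, and Bglap2 measured 8.33, 7.99 and 8.54 CPM. Neither had a read in thymus, and skin held 3 and 4 reads. Bglap in bone was at least 797-fold above thymus (adjusted p = 3.96e-05). These genes are near-identical copies, so the share of reads given to each is uncertain. The third copy, Bglap3, had 4 reads in bone.

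Mineralisation and phosphate genes were higher in bone than in thymus for 3 of 10 and lower for 2 (median 0.058), and higher than in skin for 5 and lower for 3 (median 1.27), or 7 and 2 with library size alone. The 2 lower than in thymus are near the 16.5% of all genes. Slc20a1, a phosphate transporter, stood at 176 ± 31.7 CPM in bone, 36.5 ± 7.82 CPM in thymus and 14.6 ± 2.15 CPM in skin. It was higher in bone than in each (log2 difference 2.27 ± 0.19 and 3.59 ± 0.20, adjusted p = 5.06e-06 and 2.36e-07). Ank, an exporter linked to extracellular pyrophosphate, was level between bone and thymus (−0.048 ± 0.15, adjusted p = 0.845) and higher in bone than in skin (2.86 ± 0.16, adjusted p = 2.25e-07). Anxa5, a calcium-binding annexin, stood at 627 ± 60.2 CPM in bone and 842 ± 38.3 CPM in skin, with a difference of −0.43 ± 0.16 (adjusted p = 0.0405) that turned to 0.26 with library size alone (adjusted p = 0.130).

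Of the 8 osteocyte genes listed beside Dmp1 and Phex, Sost, Dspp and Dkk1 had no reads in bone. Sost, which encodes sclerostin, had 0 reads in bone and in thymus and 57 reads in skin. Mepe had 6 reads, all in bone 3, and Dspp had none in any library. Fgf23, the phosphate hormone, measured 0.912, 0 and 0.336 CPM in bone 1, 2 and 3, with skin above bone at 7.45 ± 2.37 CPM and a bone minus skin difference of −4.16 ± 1.43 on the log2 scale (adjusted p = 0.0362), or −3.49 with library size alone (adjusted p = 0.0613). Fgf23, with 125 reads over the bone libraries, had its highest bone level in bone 1 and its lowest in bone 2, as did Dmp1. The 3 listed osteocyte genes with a bone mean of 1 CPM or more did not share that order. Of them 0 were highest in bone 1, 1 in bone 2 and 2 in bone 3. Pdpn, podoplanin of early osteocytes and of many stromal cells, was lower in bone than in thymus (−1.51 ± 0.20, adjusted p = 0.000123) and than in skin (−1.8 ± 0.2, adjusted p = 2.34e-05). Tnfsf11, RANKL of osteocytes and marrow stroma, was higher in bone, at 11.9 ± 2.37 CPM, than in thymus (4.31 ± 1.10, adjusted p = 0.0138) and skin (6.75 ± 1.27, adjusted p = 0.00170). Its decoy receptor Tnfrsf11b, at 19.2 ± 5.06 CPM in bone, was not called against either (adjusted p = 0.360 and 0.186). Of the 5 osteocyte genes tested, 1 was higher and 1 lower than in thymus (median 0.33), and 1 was higher and 3 were lower than in skin (median −1.8), or 1 and 1 with library size alone. The 1 higher and 1 lower against thymus, and the 1 higher against skin, are near the shares of all genes (16.1%, 16.5% and 23.7%). The same 1 and 1 against skin were left without any 1 of bone 3, skin 1, skin 2, skin 3, thymus 3 or thymus 1-3, and without thymus 2 or 1-3 none was called higher than in thymus.

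Of the 9 genes tested that act with Pth1r, 3 were higher in bone than in thymus and 0 lower (median 0.32), and against skin 2 were called higher and 2 lower (median −0.10), or 6 and 0 with library size alone. Both counts against skin are near the shares of all genes (23.7% higher and 23.4% lower). Gnas, whose product relays the receptor's signal and whose locus holds overlapping transcripts, stood at 1265 ± 229 CPM in bone, 708 ± 14.3 CPM in thymus and 2584 ± 323 CPM in skin. It was higher in bone than in thymus (0.84 ± 0.17, adjusted p = 0.00243) and lower than in skin (−1.03 ± 0.17, adjusted p = 0.000381), or −0.34 with library size alone (adjusted p = 0.0965). Sik3, a kinase that the receptor's signal inhibits, was not called between bone and thymus (−0.15 ± 0.17, adjusted p = 0.544) and lay under skin in bone (−0.87 ± 0.17, adjusted p = 0.00151), or −0.18 with library size alone (adjusted p = 0.401). Hdac5, at 66.4 ± 12.1 CPM in bone, was higher than in thymus (0.65 ± 0.17, adjusted p = 0.0101) and not called against skin (−0.11 ± 0.17, adjusted p = 0.618), where library size alone gave 0.58 and a call (adjusted p = 0.00825).

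**Figure D5:**
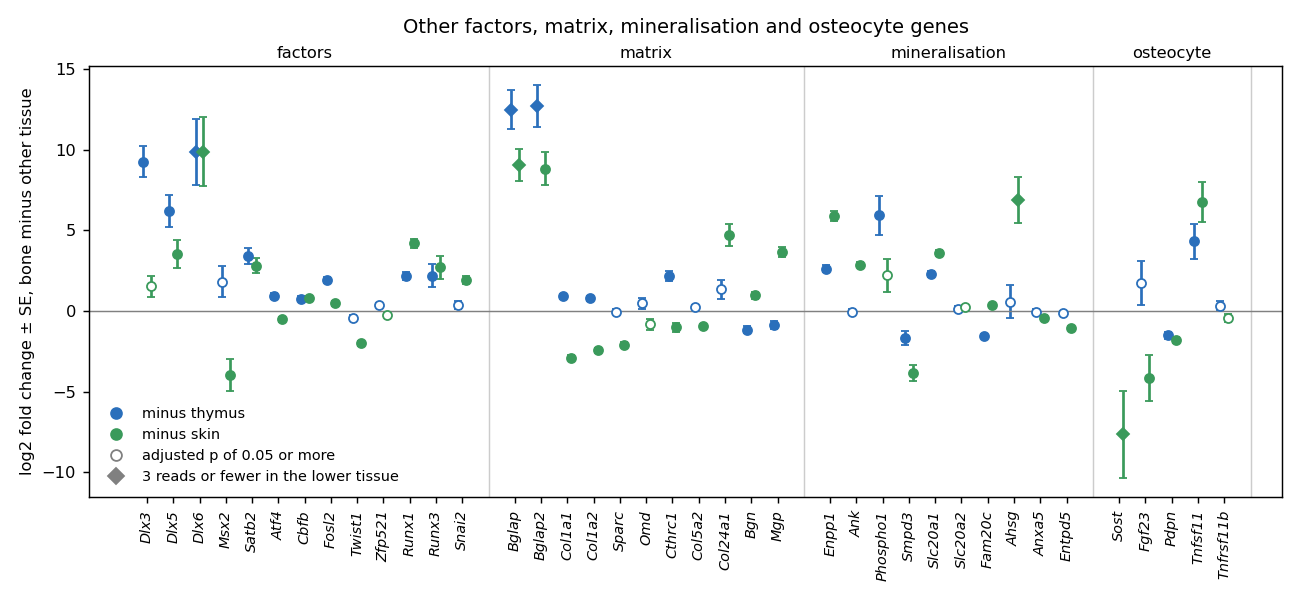
Log2 fold change with its SE of bone minus thymus (blue) and bone minus skin (green) for other lineage factors, bone matrix, mineralisation and osteocyte genes tested, with filled points where the adjusted p is under 0.05 and diamonds for 3 reads or fewer in the lower tissue. Bglap and Bglap2 lie far above 0 in both, and Col1a1, Col1a2 and Sparc lie below 0 against skin.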

How the data were processed

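The deposited count files hold whole read counts per gene symbol made by the authors for each of 9 libraries. The deposited RPKM files hold the authors' values per gene with mm10 coordinates. CASAVA 1.8.2, HTSeq 0.5.4 and the build mm10 appear in the submitters' processing notes without a role. Aligner, annotation and strandedness: not given in the sources used here. Summary lines that name no gene took 5.05 to 14.8% of the counts and were left out. Replicate libraries differed by more than sampling noise (chi-square of 92.9 to 293 per degree of freedom).

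The test on counts was edgeR 4.0.16 under R 4.3.3 (TMM, filterByExpr by tissue, robust quasi-likelihood test, 1 fit of all 9 libraries). TMM factors were 1.16 to 1.23 in bone, 1.10 to 1.18 in thymus and 0.701 to 0.770 in skin. SE is the log2 fold change divided by the square root of F. Where a tissue had no reads, 3 reads over its 3 libraries served as the floor for the pooled reads of the other tissue (0.00960 CPM in bone, 0.0123 in skin and 0.00880 in thymus), and with 1 to 3 reads the ratio has an exact conditional binomial interval. The scripts were tested on simulated data. Alternatives were other scalings and filters, DESeq2 1.42.0, limma 3.58.1 on log2 of RPKM plus 1 or 0.1 (RPKM of 1 or more in 3 libraries, or no filter), a replicate block, 2 tissues at a time and each library left out.

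The genes and lists were chosen with earlier results of these data known. Named from each list are the 3 genes with the highest bone mean, with the osteocalcin copies, Sost, Mepe, Fgf23 and Dspp. Ptprc, Ly6a and Calcr are named as markers, and Supt3 for its overlap. Likeness used a prior count of 2 and left out predicted genes.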

Additional observations from a re-analysis of the deposited data

How the results depend on the processing

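Over 536 recomputed differences of the 9 genes, 510 kept their direction and their side of the threshold, 6 lost their call, 1 gained one and 19 changed sign, all 19 of them among differences that were not called. With library size alone, Ifitm5 for bone minus skin became 0.50 and Alpl for thymus minus skin 0.58. That scaling also moved the share of higher among called genes from 50.3 to 84.3% for bone against skin and from 51.3 to 85.4% for thymus against skin. With limma on log2(RPKM + 1), Dmp1 for bone minus thymus became −0.082, Ifitm5 for bone minus skin 0.10 and Alpl for thymus minus skin 0.31, with or without the filter, and with a pseudocount of 0.1 these were −0.37, 0.13 and 0.50. Phex for thymus minus skin was not called in those fits (0.11 and 0.77), nor with only the 2 tissues compared (2.32, adjusted p = 0.176). Without the filter on RPKM, Sp7 for thymus minus skin was −0.49 and was not called, so 3 of the 9 genes were called between thymus and skin in place of 5. With each library left out in turn, differences that were not called crossed 0: Dmp1 for bone minus thymus (−0.62 without bone 1 to 0.71 without bone 2), Ifitm5 for bone minus thymus (−1.44 without bone 3 to 0.18 without thymus 2), for bone minus skin (−0.99 without bone 3 to 0.27 without bone 2, with 0.05 without skin 3) and for thymus minus skin (−0.34 without thymus 2 to 0.95 without thymus 3), and Alpl for thymus minus skin (−0.25 without skin 1 to 0.27 without skin 3, with 0.05 without thymus 1-3). Ibsp for bone minus thymus ranged from 10.98 without bone 2 to 13.80 without thymus 3. The causes were not tested.

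The labels do not say whether equal replicate numbers pair libraries. Same-numbered libraries deviated from their tissue means with correlations of −0.033 to 0.076, and differently numbered ones with −0.066 to 0.034. For thymus and skin, same-numbered pairs gave 0.056 and 0.076, and the others −0.066 to 0.013. With 3 libraries per tissue, these values cannot decide whether libraries were paired, and the main fit used no block. With the number as a block, 3399 genes were called between bone and thymus in place of 5101, Dmp1 for bone minus thymus became −1.14, and the counts of the 9 genes called were 6, 8 and 5 as without it. The order of the 9 genes by median RPKM changed 2 ranks in thymus, where Dmp1 and Alpl traded places. Depth limits Sp7 and Ibsp in thymus and Phex in skin, which rest on 1, 13 and 25 reads.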
